A study of Mus musculus with 66 samples.

Results

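Cirbp and Rbm3 encode the 2 best known cold-inducible RNA-binding proteins of mammals. They were picked by symbol from the 24138 genes of the expression table, where each has 1 row, and both were above 1 FPKM in all 66 libraries. FPKM is the number of fragments scaled to transcript length and to all mapped fragments. The libraries were made from poly(A) RNA of punches of the ventral striatum (nucleus accumbens, NAcc) of male C57BL/6 mice (C57BL/6J background in the study's methods) aged 3 to 5 months and kept under 12 h of light and 12 h of dark. WT mice and iMSN-D2RKO mice received saline or 20 mg/kg cocaine intraperitoneally at ZT3, 3 h after lights on, and were killed at ZT7, ZT11, ZT15, ZT19 or ZT23. Mice of each genotype killed at ZT3 stand for the start of both treatments, so the saline and the cocaine series of a genotype share these libraries. Each of the 22 groups held 3 libraries, and a series of 18 libraries is 1 genotype under 1 treatment. ZT3, ZT7 and ZT11 are light hours, the rest phase of mice, and ZT15, ZT19 and ZT23 are dark hours, their active phase. The question the design poses for these genes is whether their level over the day depended on cocaine and on the dopamine D2 receptor (D2R) of medium spiny neurons.

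In iMSN-D2RKO mice both alleles of the D2R gene are floxed and Cre is driven by the D1R promoter. It acts in embryonic precursors that express both receptors and thereby removes D2R from indirect pathway medium spiny neurons, while other cells can keep it. All libraries are of bulk tissue, in which fewer cells of a type and less RNA per cell cannot be told apart. The sources used here do not state whether each library came from 1 mouse, so the p-values measure the spread between libraries of a group.

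CIRBP and RBM3 are small proteins with 1 RNA recognition motif and a glycine-rich tail. Their transcripts rise in cells cooled a little below body temperature and fall on warming, the opposite of heat shock genes, which encode chaperones that help proteins fold. Body and brain temperature of mice rise in the active phase, and the daily temperature cycle is known to drive Cirbp, whose protein affects polyadenylation of clock gene transcripts. RBM3 is known from cooled neurons, where it is linked to the keeping of synapses. How efficiently Cirbp transcripts are spliced depends on temperature, and so does the activity of CLK kinases, which phosphorylate the SR splicing factors.

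Cirbp (XLOC_001633) lies on the plus strand of chromosome 10 at 80165985 to 80172786 in GRCm38, the mm10 build of the files. Of the promoters given by RefSeq for the members, the table held Cirbp alone. The stretch from -250 to -62 before its first RefSeq start site (GRCm38.p6, chr10:80167589-80167777, plus strand, inside the annotated span of the gene) is shown because it holds the letters TCCCCGCC, known as the mild cold response element of this gene, at -247. Capitals mark this element and CCAAT on either strand.
Cirbp: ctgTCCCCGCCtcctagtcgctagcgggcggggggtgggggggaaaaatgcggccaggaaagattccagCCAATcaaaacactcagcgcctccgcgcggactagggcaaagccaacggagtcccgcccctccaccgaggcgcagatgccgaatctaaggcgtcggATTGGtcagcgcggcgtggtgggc
TCCCCGCC was found on either strand in 4.64% and CCAAT in 33.8% of the 32851 promoters of 250 bases. The same window of Cirbp held no E-box (CACGTG, in 6.02% of promoters), no pair of heat shock units (GAANNTTC, 6.69%), no D-box core (TTATGTAA, 0.819%) and no cAMP response element (TGACGTCA, 1.55%). The 250 bases were 65.6% G or C, against a median of 52.4%. The 250 bases before a second RefSeq start site of Cirbp held none of these motifs, TCCCCGCC and CCAAT included. These are matches of letters in a window and no evidence that a factor binds there.

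Rbm3 (XLOC_023550) lies on the minus strand of chromosome X at 8138975 to 8145880. The antisense gene Rbm3os overlaps it by 452 bases and was at most 0.768 FPKM (median 0.312). A processed pseudogene, Rbm3-ps, is annotated on chromosome 1 at 150265535 to 150265999 and has no row of its own. The libraries were stranded, but how the authors' counting shared reads between the copies is not given in the sources used here, which leaves the level of Rbm3 the less certain.

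On the whole table, the libraries were uneven. FPKM summed to 364078 to 690048 per library (median 396432, second highest 465297) and read depth is unknown. The highest sum belonged to replicate 1 of iMSN-D2RKO saline ZT7. Along the main axis of the differences between libraries of 1 group (9584 genes, 43.6% of their variance), 13 libraries scored 51.7 to 63.5 and the other 53 from -28.4 to 22.5. These set-apart libraries were 12 of 36 dark and 1 of 30 light libraries, 6 WT and 7 iMSN-D2RKO. By series and time they were ZT19 replicates 1 and 2 and ZT23 replicate 1 of WT saline, ZT19 replicates 1 and 3 and ZT23 replicate 3 of WT cocaine, ZT15 replicate 2, ZT19 replicates 1 and 3 and ZT23 replicate 3 of iMSN-D2RKO saline, and ZT7 replicate 2, ZT15 replicate 3 and ZT23 replicate 1 of iMSN-D2RKO cocaine. Their 4 astrocyte markers summed to 229 to 307 FPKM (median 273), against 136 to 332 (median 183) in the others, and the 3 endothelial markers to 33.0 to 46.2 (median 40.6) against 35.9 to 100.2 (median 55.4). The part of cell makeup in the results was not tested, so each result that rests on the set-apart libraries is given with and without them. The 7 spiny neuron markers, which define the tissue, were all present and summed to 2110 to 14170 FPKM. Cortical neuron markers summed to 2.44 to 259 and choroid plexus markers to 0.760 to 1123, with medians of 111 and 2.11 over all libraries. Drd2, the targeted gene, ranged from 78.0 to 375 FPKM. Over all libraries its saline means did not differ past the test (iMSN-D2RKO minus WT -0.02 ± 0.17 on log2(FPKM + 1), mean ± SE, limma adjusted p = 0.985). Without the set-apart libraries, the iMSN-D2RKO mean was below that of WT at ZT3 (105.5 against 120.9 FPKM) and ZT11 (100.4 against 125.7). It was also below at ZT15 (85.5 against 123.9), at ZT23 (110.9 against 116.1) and at ZT19, where 1 library per genotype remained. At ZT7 it was above (211.7 against 110.5), with 374.6 in replicate 1, the library with the highest FPKM sum. No test of the difference without these libraries is reported here. A value over the whole gene, in mice that lose part of the gene in some cells, does not check the labels.

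Cirbp was the more abundant of the pair. It ranged from 17.9 to 106.1 FPKM with a median of 56.5, and its mean was above that of 90.3% of the 14643 genes that reached 1 FPKM in any library. Rbm3 ranged from 1.57 to 6.54 FPKM with a median of 3.42, above 28.0% of these genes. FPKM is scaled to transcript length, so both levels can be set side by side, and the ratio of Cirbp to Rbm3 had a median of 16.6 (6.75 to 42.5). The ratio was not even over the day. Its median was 18.7 at ZT7 and 18.6 at ZT11 and 11.1 at ZT15, with 12 libraries at each of these times.

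**Figure D1:**
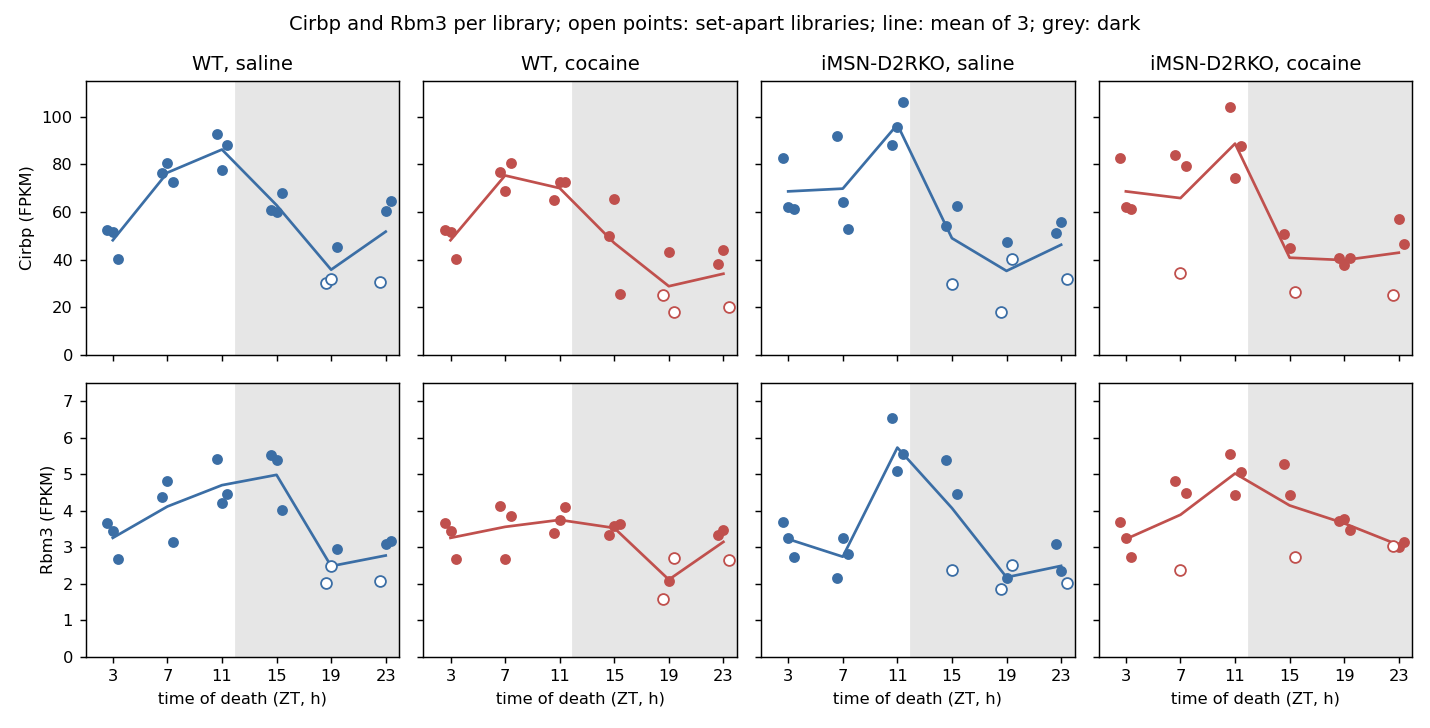
FPKM of Cirbp (top) and Rbm3 (bottom) in each library against the time of death (ZT, in h) for the 4 series, with a line through the means of 3 libraries, open points for the set-apart libraries and grey for dark hours. The ZT3 libraries of a genotype appear in both of its series. In every series the 3 points at ZT11 lie above the 3 points at ZT19 for both genes.

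In WT mice given saline, Cirbp climbed through the light hours and was lowest in the middle of the dark. The 3 libraries of ZT3 held 52.5, 51.6 and 40.3 FPKM, and those of ZT7 76.6, 80.5 and 72.5. At ZT11, Cirbp stood at 92.9, 77.6 and 88.1 FPKM (mean 86.2 ± 7.81 SD, n = 3), the highest of the series. All ZT7 and ZT11 libraries were above all ZT3 libraries. The ZT15 libraries held 60.7, 60.2 and 67.9 FPKM and the ZT19 libraries 30.2, 31.8 and 45.4 (mean 35.8 ± 8.34 SD, n = 3). At ZT23 the values were 30.5, 60.3 and 64.5 FPKM. The low values at ZT19 and ZT23 (30.2, 31.8 and 30.5) were the set-apart libraries of this series.

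Rbm3 in the same mice stayed high into the first dark hours. It was 3.65, 3.44 and 2.68 FPKM at ZT3, and 4.38, 4.82 and 3.15 at ZT7. At ZT11 it was 5.41, 4.22 and 4.47 FPKM, and at ZT15 5.53, 5.39 and 4.03. The ZT11 and ZT15 libraries overlapped, with the highest mean at ZT15 (4.98 ± 0.831 SD, n = 3). At ZT19 Rbm3 was 2.01, 2.49 and 2.95 FPKM and at ZT23 2.08, 3.08 and 3.16, all below every ZT11 and ZT15 library.

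In WT mice given cocaine, Cirbp held 76.7, 68.8 and 80.6 FPKM at ZT7 and 64.9, 72.5 and 72.6 at ZT11. Both times were above the ZT3 libraries shared with the saline series. At ZT15 it was 50.0, 65.6 and 25.4 FPKM, a wide spread around 47.0 ± 20.3 (SD, n = 3), and the lowest of these, replicate 3, had the second highest score of the libraries that were not set apart. At ZT19 Cirbp was 25.0, 43.3 and 18.2 FPKM and at ZT23 38.2, 44.0 and 20.0. No library of ZT19 or ZT23 reached any library of ZT7 or ZT11.

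Rbm3 spanned a narrower range in this series. It was 4.14, 2.68 and 3.85 FPKM at ZT7 and 3.40, 3.75 and 4.10 at ZT11. It was 3.35, 3.59 and 3.64 FPKM at ZT15, then 1.57, 2.07 and 2.70 at ZT19 and 3.34, 3.46 and 2.64 at ZT23. ZT19 was the low point, with a mean of 2.11 ± 0.565 FPKM (SD, n = 3), the lowest of all 22 groups.

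In iMSN-D2RKO mice, Cirbp started at 82.7, 62.1 and 61.2 FPKM at ZT3. After saline it was 92.1, 64.3 and 53.0 FPKM at ZT7 and 88.2, 95.8 and 106.1 at ZT11. The ZT11 mean, 96.7 ± 8.99 (SD, n = 3), was the highest of all groups. Cirbp was then 54.3, 29.97 and 62.7 FPKM at ZT15, 17.9, 47.5 and 40.4 at ZT19, and 51.0, 55.8 and 32.0 at ZT23. The values of 29.97, 17.9, 40.4 and 32.0 were the set-apart libraries, and each was the lowest, or among the 2 lowest, of its group.

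Rbm3 was highest at ZT11 in the same series. It was 3.68, 3.26 and 2.73 FPKM at ZT3, 2.17, 3.25 and 2.81 at ZT7, and 6.54, 5.08 and 5.56 at ZT11. Every ZT11 library was above every ZT3 and ZT7 library. At ZT15 it was 5.39, 2.37 and 4.45 FPKM, at ZT19 1.86, 2.15 and 2.52, and at ZT23 3.09, 2.35 and 2.03. The ratio of 42.5 quoted above was that of ZT7 replicate 1, the library with the highest FPKM sum, where Rbm3 was 2.17.

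After cocaine, Cirbp in iMSN-D2RKO mice was 83.8, 34.6 and 79.2 FPKM at ZT7 and 104.2, 74.1 and 87.8 at ZT11. The 34.6 was the 1 light library set apart. At ZT15 Cirbp was 50.8, 45.1 and 26.6 FPKM, at ZT19 40.7, 37.9 and 40.9, and at ZT23 25.0, 57.2 and 46.6. The ZT19 group held no set-apart library and had the smallest spread of the series, 39.8 ± 1.70 FPKM (SD, n = 3).

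Rbm3 there was 4.81, 2.38 and 4.48 FPKM at ZT7, 5.56, 4.44 and 5.05 at ZT11 and 5.28, 4.42 and 2.73 at ZT15. It was 3.73, 3.76 and 3.48 FPKM at ZT19 and 3.04, 3.00 and 3.14 at ZT23. The low point of this series was thus ZT23, not ZT19 as in the others. When the 22 groups were ordered by mean, every group overlapped its neighbours in the order, for both genes, so the order of neighbours is not resolved.

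In all 4 series, every ZT11 library was above every ZT19 library, for Cirbp and for Rbm3. The pair of times was chosen after the values were seen, so no test is given. The ZT11 and ZT19 libraries of the 4 series are separate. Such a separation was met by 9.44% of 14643 genes in WT saline, 20.2% in WT cocaine, 9.25% in iMSN-D2RKO saline and 10.2% in iMSN-D2RKO cocaine, and by 1.46% in all 4. The mean of Cirbp at ZT11 was 2.41, 2.43, 2.74 and 2.23 times that at ZT19 in these series. That of Rbm3 was 1.89, 1.77, 2.63 and 1.37 times. The separation held in all 4 series without the set-apart libraries, as for 2.95% of genes, with ratios of 1.90, 1.62, 2.04 and 2.23 for Cirbp and 1.59, 1.81, 2.67 and 1.37 for Rbm3. Only 1 ZT19 library then remained in each of the first 3 series.

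Rhythm was tested with JTK_CYCLE, a rank test of 20 and 24 h waves, whose exact p is corrected for the waves tried and not for the number of genes. At p under 0.01, Cirbp was rhythmic in 3 of 4 series and Rbm3 in none. In WT saline, Cirbp had an exact p = 6.21e-06 with a peak at ZT11, and only 8 of 13940 genes had a smaller p. This was for a wave of 20 h, and with waves of 24 h alone the exact p was 0.000265. Rhythm was called for 9.81% of genes there. In WT cocaine its p was 0.000337 with a peak at ZT9, with 107 of 14268 genes below it and 7.61% called. Both calls held when any 1 of the 18 libraries of the series was left out (largest p 3.31e-05 and 0.00156). Without the 3 set-apart libraries of each series, p was 2.63e-05 in WT saline and 0.0124 in WT cocaine.

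In iMSN-D2RKO mice Cirbp passed after saline and not after cocaine. Its p was 0.00755 in saline, where 2.58% of genes were called, and 0.0359 in cocaine, where 1.1% were. Both peaks were at ZT9. The saline call was lost on leaving out any of 15 of the 18 libraries, and was 0.0488 without the set-apart ones. In cocaine, leaving out ZT7 replicate 2 alone, the set-apart light library, gave an exact p = 0.00143, and leaving out all 3 gave 0.000413. Rbm3 had an exact p = 0.0199 in both WT series, with peaks at ZT11 in saline and ZT9 in cocaine. In iMSN-D2RKO mice its p was 0.0476 in saline (peak ZT11) and 0.0269 in cocaine (peak ZT13). Its p passed without 1 library in WT cocaine (0.00143 without ZT7 replicate 2) and in iMSN-D2RKO cocaine (0.00507 without ZT7 replicate 2 and 0.00339 without ZT15 replicate 3).

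A cosine of 24 h fitted with limma gave the size and time of the swing. The amplitude of Cirbp, from middle to peak on log2(FPKM + 1), was 0.55 ± 0.10 (SE) in WT saline with adjusted p = 0.0288, and 0.74 ± 0.13 in WT cocaine with adjusted p = 0.0224. It was 0.63 ± 0.15 in iMSN-D2RKO saline (adjusted p = 0.182) and 0.52 ± 0.15 in iMSN-D2RKO cocaine (adjusted p = 0.770). Before adjustment, the limma p of Cirbp in these 2 series was 0.00165 and 0.00919. The cosine fit called 1965 of 13940 genes in WT saline and 2084 of 14268 in WT cocaine. It called 1 of 14135 in iMSN-D2RKO saline and 0 of 13944 in iMSN-D2RKO cocaine. The fitted peaks of Cirbp were late in the light hours, at ZT9.54 ± 0.708 h, ZT8.48 ± 0.669 h, ZT7.97 ± 0.889 h and ZT7.68 ± 1.09 h in the 4 series in that order. Amplitudes of Rbm3 were smaller on this scale, which compresses changes of a gene as low as Rbm3. They were 0.37 ± 0.08 with adjusted p = 0.0335 in WT saline and 0.22 ± 0.08 with 0.108 in WT cocaine. In iMSN-D2RKO mice they were 0.39 ± 0.11 with 0.182 in saline and 0.24 ± 0.08 with 0.985 in cocaine. The fitted peaks of Rbm3 were at ZT10.8 ± 0.773 h, ZT8.53 ± 1.33 h, ZT11.0 ± 1.07 h and ZT12.0 ± 1.21 h. The lag between the 2 genes was not tested. When the set-apart libraries were left out, no amplitude of the WT series passed, and those of iMSN-D2RKO cocaine did (Cirbp 0.57, adjusted p = 0.0181, and Rbm3 0.31, adjusted p = 0.0228).

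Hours of light and dark were compared with limma over all 66 libraries, as the mean of the 3 dark times minus the mean of the 3 light times. Cirbp was lower in the dark in 3 of 4 series and Rbm3 in 1, at an adjusted p under 0.05. Cirbp had a median of 76.6 FPKM (40.3 to 92.9) in the 9 light libraries of WT saline and of 60.2 (30.2 to 67.9) in the 9 dark ones. In WT cocaine the medians were 68.8 (40.3 to 80.6) and 38.2 (18.2 to 65.6). In iMSN-D2RKO mice they were 82.7 (53.0 to 106.1) and 47.5 (17.9 to 62.7) in saline and 79.2 (34.6 to 104.2) and 40.9 (25.0 to 57.2) in cocaine. Light and dark libraries overlapped in all 4 series.

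The difference of Cirbp was -0.50 ± 0.20 (SE) on log2(FPKM + 1) in WT saline, with adjusted p = 0.111. It was -0.88 ± 0.20 in WT cocaine (adjusted p = 0.00528) and -0.88 ± 0.20 in iMSN-D2RKO saline (adjusted p = 0.00576). In iMSN-D2RKO cocaine it was -0.83 ± 0.20 (adjusted p = 0.0285). Genes called lower in the dark were 0.744%, 3.79%, 9.88% and 0.328% of the 14643 tested in the 4 series in this order, and the median difference of all genes was 0.05, 0.06, 0.03 and 0.02. Of these genes, 336, 96, 78 and 24 had a more negative difference than Cirbp. The difference without the set-apart libraries was -0.27, -0.55 (adjusted p = 0.00359), -0.52 (adjusted p = 0.0836) and -0.76 (adjusted p = 0.00148), and 0.0693%, 4.35%, 0.0623% and 0.63% of 14438 genes were then called lower. The calls in WT cocaine and iMSN-D2RKO saline held without any single library. That in iMSN-D2RKO cocaine was lost (adjusted p of 0.0589 to 0.103) without any of 7, which were ZT3 replicate 1, ZT7 replicates 1 and 3, ZT11 replicate 3, ZT15 replicate 3, ZT19 replicate 2 and ZT23 replicate 1.

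The difference of Rbm3 was smaller, at -0.22 ± 0.11 in WT saline (adjusted p = 0.183), -0.22 ± 0.11 in WT cocaine (0.149), -0.32 ± 0.11 in iMSN-D2RKO saline (0.0300) and -0.11 ± 0.11 in iMSN-D2RKO cocaine (0.688). A log2(FPKM + 1) scale compresses changes of a gene as low as Rbm3. Its light and dark medians in iMSN-D2RKO saline, the 1 series called, were 3.26 (2.17 to 6.54) and 2.37 (1.86 to 5.39) FPKM. That call ended when the set-apart libraries were left out (-0.20, adjusted p = 0.417) and when any 1 of 6 libraries was, ZT3 replicate 1, ZT7 replicate 2, ZT11 replicate 1, ZT15 replicate 2, ZT19 replicate 1 or ZT23 replicate 3 (adjusted p of 0.0519 to 0.129).

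**Figure D2:**
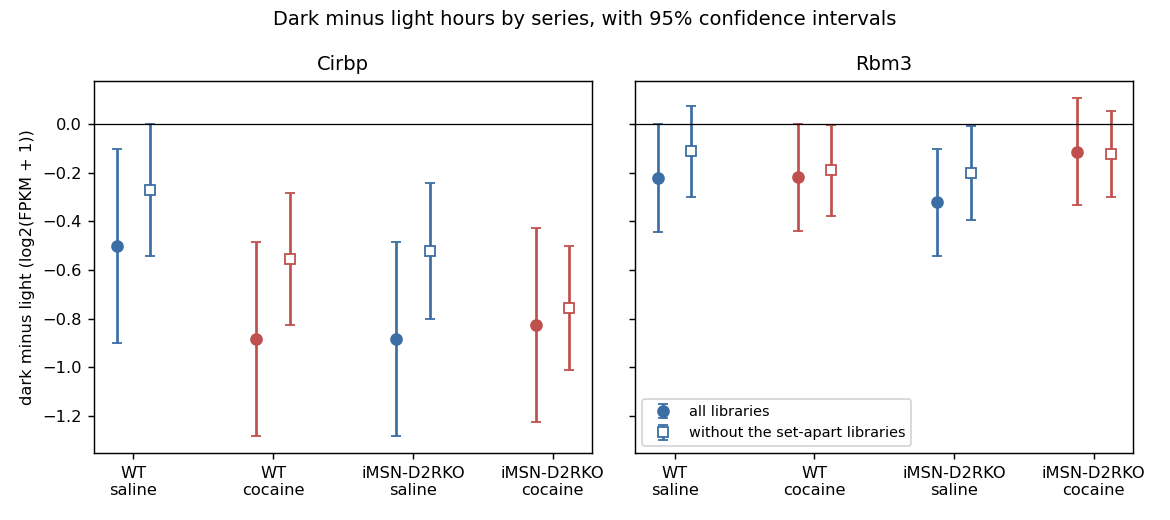
Dark minus light hours on log2(FPKM + 1) for Cirbp (left) and Rbm3 (right) in each series, with 95% confidence intervals, for all libraries (filled circles) and without the set-apart libraries (open squares). All 16 estimates lie below 0, and those of Cirbp without the set-apart libraries are nearer to 0 than those with them.

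A test of any change over the 6 times, which presupposes no shape, called Cirbp in WT cocaine (adjusted p = 0.00536) and iMSN-D2RKO saline (0.0387), and not in WT saline (0.109) or iMSN-D2RKO cocaine (0.133). Rbm3 was called in WT saline (0.0331) and iMSN-D2RKO saline (0.00728), and not in WT cocaine (0.0779) or iMSN-D2RKO cocaine (0.385). Among all genes, 1.6%, 28%, 3.49% and 0.997% were called in the 4 series, WT saline first, then WT cocaine and the iMSN-D2RKO pair in the same order. The call of Rbm3 in iMSN-D2RKO saline held without any single library and without the set-apart ones (0.00164). The calls of Rbm3 in WT saline and of Cirbp in iMSN-D2RKO saline were each lost on leaving out any of 8 libraries (adjusted p of 0.0503 to 0.162 and 0.0584 to 0.126). Rbm3 in WT cocaine passed without ZT15 replicate 2 of iMSN-D2RKO saline (0.0436) or ZT7 replicate 2 of iMSN-D2RKO cocaine (0.0488), set-apart libraries of other groups that enter through the shared spread.

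Neither gene passed the test of cocaine against saline on its mean level. Averaged over ZT7 to ZT23, Cirbp in WT mice differed by -0.36 on log2(FPKM + 1), with a 95% confidence interval from -0.67 to -0.05 and an adjusted p of 1.0, and 188 of 14643 genes had a smaller p. In iMSN-D2RKO mice the difference was -0.08 (-0.39 to 0.23, adjusted p = 0.972). The estimates of Rbm3 were of opposite sign, at -0.17 in WT (-0.34 to 0.00, adjusted p = 1.0) and 0.20 in iMSN-D2RKO (0.03 to 0.37, adjusted p = 0.910). limma called 0.0137% of 14643 genes in WT and 0% in iMSN-D2RKO mice, with 364 and 711 genes at an unadjusted p under 0.05. The difference between the genotypes in this effect was 0.37 ± 0.12 (SE) for Rbm3, with adjusted p = 1.0, and only 4 of 14643 genes had a smaller p. For Cirbp it was 0.28 (-0.16 to 0.72, adjusted p = 1.0). No gene was called in that comparison (0%, with 271 at an unadjusted p under 0.05).

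**Figure D3:**
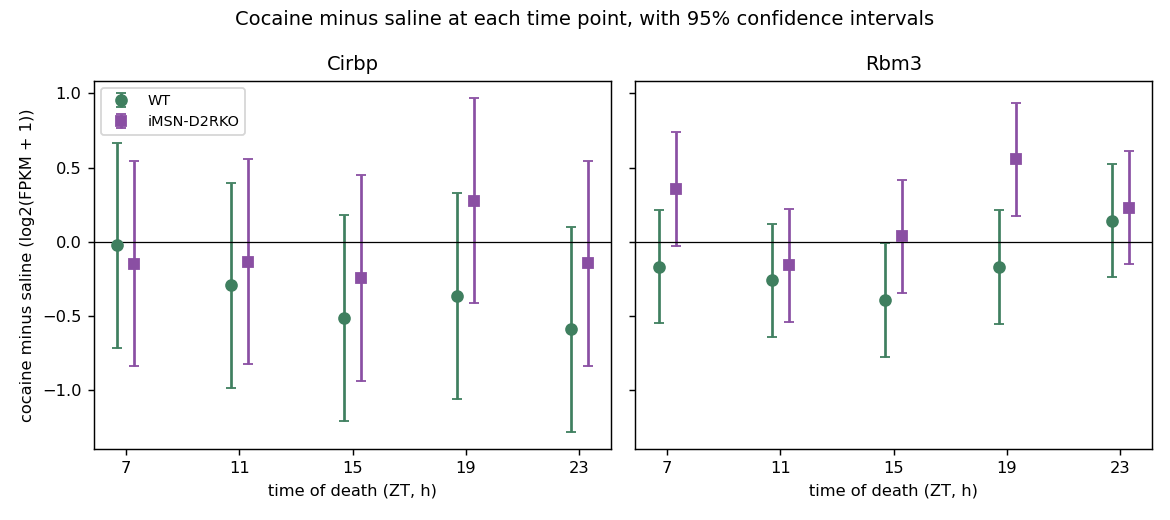
Cocaine minus saline on log2(FPKM + 1) at each time of death (ZT, in h) for Cirbp (left) and Rbm3 (right), with 95% confidence intervals, in WT (circles) and iMSN-D2RKO mice (squares). For Cirbp in WT mice all 5 estimates lie below 0, from -0.02 at ZT7 to -0.59 at ZT23.

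At single times, none of the 20 differences between cocaine and saline (2 genes, 5 times, 2 genotypes) passed in limma, and 2 had an unadjusted p under 0.05, both of Rbm3. One was ZT19 in iMSN-D2RKO mice, where Rbm3 was 1.86, 2.15 and 2.52 FPKM after saline and 3.73, 3.76 and 3.48 after cocaine (0.56 ± 0.19 SE, adjusted p = 0.304). The saline values of 1.86 and 2.52 were set-apart libraries and none of the cocaine ones was, and without them the difference was again 0.56 (adjusted p = 1.0), with the saline group resting on the 2.15. The other was ZT15 in WT mice, where Rbm3 was 5.53, 5.39 and 4.03 FPKM after saline and 3.35, 3.59 and 3.64 after cocaine (-0.39 ± 0.19, adjusted p = 0.720). In WT mice the share of genes called was 0.00683% at ZT7, 0% at ZT11, 0.00683% at ZT15, 0.0205% at ZT19 and 0% at ZT23. In iMSN-D2RKO mice it was 0.0137% at ZT7 and 0% at the other times.

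With all libraries included, neither gene passed the test of genotype on its mean over the day. In saline, iMSN-D2RKO minus WT was -0.03 for Cirbp (95% confidence interval -0.31 to 0.26, adjusted p = 0.980) and -0.12 for Rbm3 (-0.28 to 0.03, adjusted p = 0.619), where limma called 0.212% of genes. After cocaine it was 0.15 for Cirbp (-0.16 to 0.46, adjusted p = 1.0) and 0.23 for Rbm3 (0.06 to 0.40, adjusted p = 0.694), with 0.109% of genes called. Leaving out the set-apart libraries, the difference of Rbm3 after cocaine was larger, at 0.30, with 1 library left in WT cocaine at ZT19. At ZT3 the difference of Cirbp, 0.50 (-0.19 to 1.19), had an adjusted p of 1.0, and that of Rbm3 was -0.01 (-0.39 to 0.37), with 0.041% of genes called.

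One of 20 differences between the genotypes at ZT7 to ZT23 passed. Rbm3 at ZT19 after cocaine was 1.57, 2.07 and 2.70 FPKM in WT and 3.73, 3.76 and 3.48 in iMSN-D2RKO mice. The difference was 0.60 ± 0.19 (SE) on log2(FPKM + 1), with adjusted p = 0.0450. Of all genes, 11.9% were called in this comparison, in which 2 of 3 WT libraries and no iMSN-D2RKO library were set apart. The call was lost without any 1 of the 6 libraries (adjusted p of 0.0535 to 0.150), and held without the 2 set-apart ones (0.60, adjusted p = 0.0231), when WT rested on the single value of 2.07 FPKM and its spread was taken from the other groups. Cirbp at the same time was 25.0, 43.3 and 18.2 FPKM in WT and 40.7, 37.9 and 40.9 in iMSN-D2RKO mice (0.54 ± 0.34, adjusted p = 0.240). At ZT7 in saline, Rbm3 was -0.45 ± 0.19 in iMSN-D2RKO against WT (adjusted p = 0.164), and this difference passed without the set-apart libraries (adjusted p = 0.0307). Neither of these groups held a set-apart library, so the change came through the shared spread and the adjustment over all genes. One of the iMSN-D2RKO values, 2.17 FPKM, was of the library with the highest FPKM sum. Called genes were 3.07% at ZT7 in saline, 4.4% at ZT15 in cocaine, 0.0205% at ZT19 in saline, 0.0137% at ZT23 in cocaine and 0% at the other times. Without replicate 1 of iMSN-D2RKO saline ZT7, the library with the highest FPKM sum, the genes called at ZT7 in saline went from 449 to 10 and those at ZT15 in cocaine from 645 to 1207.

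Whether the daily course differed between series was tested directly. Cocaine minus saline of the dark-light difference was -0.38 for Cirbp (95% confidence interval -0.90 to 0.13) and 0.00 for Rbm3 (-0.28 to 0.29) in WT mice. In iMSN-D2RKO mice it was 0.06 (-0.46 to 0.57) and 0.21 (-0.08 to 0.49). iMSN-D2RKO minus WT was -0.38 (-0.95 to 0.18) and -0.10 (-0.41 to 0.21) in saline and 0.06 (-0.51 to 0.62) and 0.11 (-0.21 to 0.42) in cocaine. None passed in limma (smallest adjusted p 0.648), and none had an unadjusted p under 0.05. The share of genes called was 0.00683% for cocaine against saline in WT mice (200 genes at an unadjusted p under 0.05), and 0% in the other 3 comparisons (670, 606 and 311 genes). An F test of different cosines called neither gene (smallest adjusted p 0.570) and 0% of genes in all 4 comparisons, with 198, 789, 355 and 895 genes at an unadjusted p under 0.05.

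Within groups, Cirbp went down in the set-apart libraries. In all 13 it was below every library of its group that was not set apart, by a median of -0.94 on log2(FPKM + 1) (-1.36 to -0.23), and 16.3% of genes were below in all 13 in the same way. Cirbp was among the genes that set these libraries apart, so this is a description. Rbm3 was below in 10 and above in 2 of the 13, with a median of -0.27. Hsph1, which encodes a large heat shock protein that serves as exchange factor for HSP70 chaperones, was above in 12 (median 0.27), and Drd2 in all 13 (median 0.92).

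The relation among mice killed at the same time was taken within the remaining libraries, as deviations from the group mean (50 libraries in 19 groups, 3 relations, permutation within groups). Cirbp and Rbm3 showed no relation past the test, with Pearson's r = 0.09 (p = 0.576, adjusted p = 0.576) and Spearman's rho = 0.15 (p = 0.385, adjusted p = 0.491). Cirbp and Hsph1 had r = -0.39 (p = 0.115, adjusted p = 0.257) and rho = -0.34 (p = 0.0784, adjusted p = 0.235). Rbm3 and Hsph1 had r = -0.29 (p = 0.171, adjusted p = 0.257) and rho = -0.13 (p = 0.491, adjusted p = 0.491). Without the 2 libraries farthest out on the x axis, r was 0.15, -0.24 and -0.05 for the 3 relations. With upper-quartile scaling the relation of Cirbp and Hsph1 passed (r = -0.51, adjusted p = 0.0176). Only 6 set-apart libraries, in 3 groups of 2, shared a group with another, too few for a test, since permutation within groups cannot give them a p below about 0.250.

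**Figure D4:**
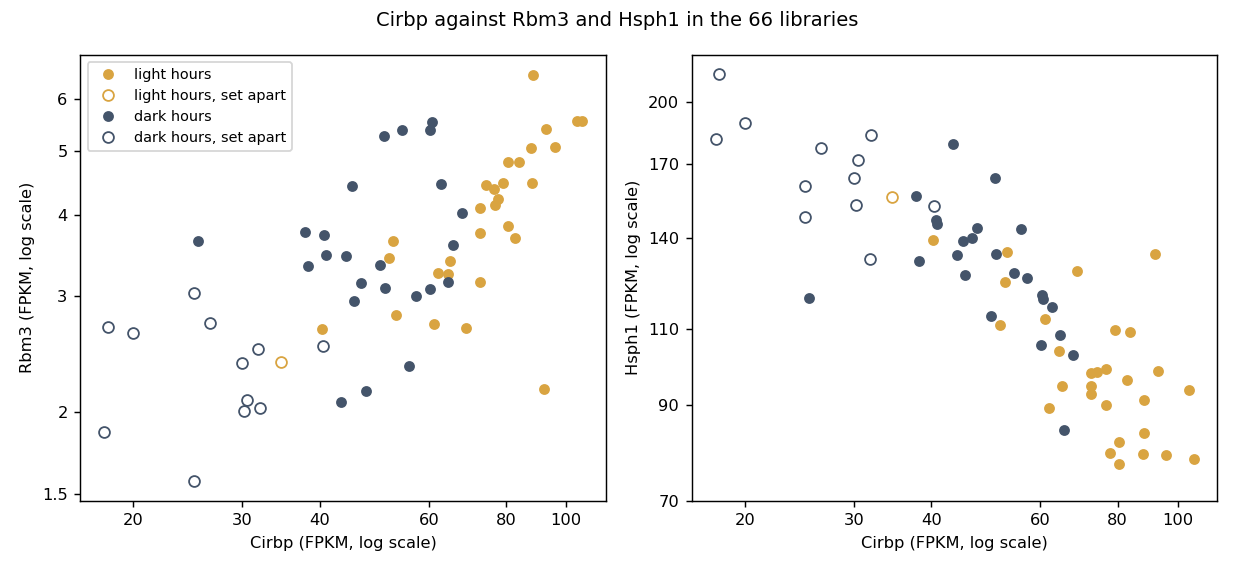
Rbm3 (left) and Hsph1 (right) against Cirbp in the 66 libraries, in FPKM on log scales, for light (yellow) and dark hours (blue grey), with open points for the set-apart libraries. Open points lie at the low end of Cirbp, from 17.9 to 40.4 FPKM.

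Between times of day, Hsph1 ran against both members. In all 4 series every ZT11 library of Hsph1 was below every ZT19 library, as for 5.59% of genes (8.86% without the set-apart libraries, where it also held). In WT saline it was 98.6, 79.4 and 83.6 FPKM at ZT11 and 152.5, 132.4 and 126.8 at ZT19, and in WT cocaine 94.6, 94.7 and 92.7 against 147.7, 179.0 and 215.4. In iMSN-D2RKO mice it was 91.3, 79.0 and 78.1 against 181.5, 143.7 and 152.0 after saline, and 93.8, 98.3 and 79.1 against 146.5, 156.2 and 145.3 after cocaine.

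Some genes of the heat shock list were called higher in the dark in each of the 4 series, and none was called lower. Of 23 listed genes, 22 had a row of their own. Higher in the dark were 4 in WT saline, 12 in WT cocaine, 13 in iMSN-D2RKO saline and 6 in iMSN-D2RKO cocaine, and 0 were lower. Among all genes, 2.01%, 9.9%, 17.4% and 0.615% were called higher. The medians of the list were 0.25, 0.35, 0.39 and 0.37. Estimates below 0 were those of 3, 2, 2 and 0 of the 22 genes. The lowest was -0.48 in WT saline (-0.99 without the set-apart libraries). The genes called higher in WT saline were Hspa4, an HSP110 chaperone (0.28, adjusted p = 0.0297), the HSP90 co-chaperones Chordc1 (0.55) and Stip1 (0.43), and Hsp90ab1 (0.56). In WT cocaine, Stip1 was 0.56 and Ahsa1, an activator of HSP90, 0.52 higher. In iMSN-D2RKO saline the smallest p was that of Chordc1 (0.89, adjusted p = 0.000845), followed by Hsph1 (0.56). In iMSN-D2RKO cocaine, Hsph1 rose by 0.53 (adjusted p = 0.00625) and Hspa1b, an inducible HSP70, by 0.85. The calls without the set-apart libraries were 0, 14, 5 and 10, with medians of 0.17, 0.35, 0.34 and 0.37, where 0.0346%, 13.7%, 0.152% and 1.24% of all genes were called higher. With upper-quartile scaling they were 2, 8, 12 and 3, with medians of 0.17, 0.25, 0.33 and 0.31. That scaling turned the balance of all called genes in the cocaine series, from 1449 higher and 555 lower to 809 and 1144 in WT and from 90 and 48 to 46 and 85 in iMSN-D2RKO mice. In saline it moved from 294 and 109 to 206 and 155 in WT and from 2554 and 1447 to 1921 and 1909 in iMSN-D2RKO mice. Of the 22, 13 were lower at ZT11 than at ZT19 without overlap in all 4 series, as were 5.59% of all genes, and 0 were higher. In WT saline, Hspa1a, Hspa1b and Dnajb1 had JTK_CYCLE peaks at ZT3 and were not called. In WT cocaine the peaks were at ZT21, ZT3 and ZT3, and in iMSN-D2RKO saline at ZT15, ZT17 and ZT5, with none called. In iMSN-D2RKO cocaine their peaks were at ZT19, and Hspa1a and Hspa1b were called.

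Of the CLK kinases and SR factors, 11 of 12 had a row. In the dark 3, 5, 5 and 2 were called higher and 0 lower in the 4 series, in the order given, with medians of 0.31, 0.29, 0.36 and 0.22. Among all genes, 2.01%, 9.9%, 17.4% and 0.615% were called higher. Estimates below 0 were those of 1, 1, 3 and 2 of the 11 genes. Clk1, whose kinase activity is higher in cooler cells, was higher in all 4, by 0.61 (adjusted p = 0.0174), 0.80 (0.00124), 0.66 (0.00307) and 0.54 (0.0298). The splicing regulator Tra2a was higher in all 4, by 0.32, 0.40, 0.46 and 0.43, and the SR factor Srsf6 in the first 3, by 0.40, 0.50 and 0.42. With the set-apart libraries left out, the numbers higher were 1, 5, 1 and 2, and Clk1 was among them in all 4 series and Tra2a in the cocaine series alone. At ZT11, 6 of the 11 were below ZT19 without overlap in all 4 series, as were 5.59% of all genes.

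The 11 clock genes split in direction, as their phases differ. Called higher and lower in the dark were 0 and 2 in WT saline, 3 and 1 in WT cocaine, 4 and 2 in iMSN-D2RKO saline and 1 and 1 in iMSN-D2RKO cocaine. Among all genes, 2.01%, 9.9%, 17.4% and 0.615% were called higher and 0.744%, 3.79%, 9.88% and 0.328% lower. Nr1d1, the repressor REV-ERBα, was lower in the dark in all 4 (-0.41, -0.38, -0.54 and -0.52), as Cirbp was in 3. Arntl, which encodes BMAL1, was higher in WT cocaine (0.53) and iMSN-D2RKO saline (0.41). Leaving out the set-apart libraries, Nr1d1 was called in all 4 series, and Arntl in both cocaine series and not in iMSN-D2RKO saline (0.14, adjusted p = 0.622). Dbp, Nr1d1 and Per3 were above at ZT11 without overlap with ZT19 in all 4 series, like the members and 1.46% of all genes. Arntl was below, as were 5.59% of all genes. By JTK_CYCLE 6, 4, 2 and 1 of the clock genes were rhythmic, against 10, 11, 1 and 2 of the heat shock and 4, 3, 0 and 0 of the splicing genes. The shares among all genes were 9.81%, 7.61%, 2.58% and 1.1%.

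**Figure D5:**
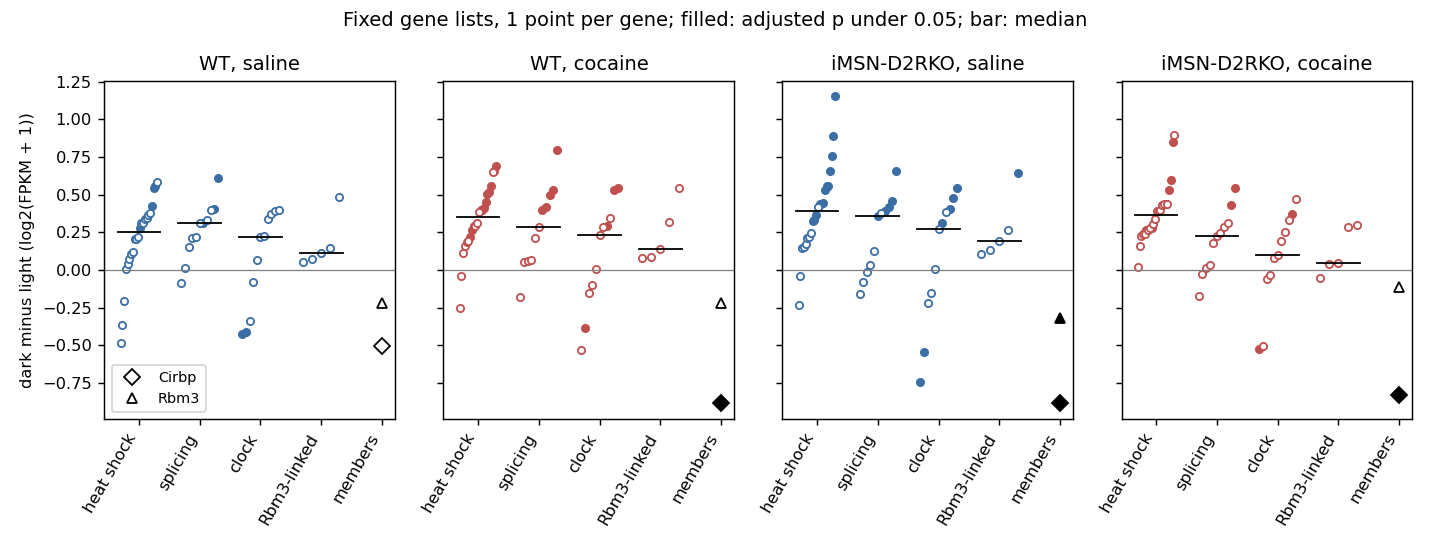
Dark minus light hours on log2(FPKM + 1), 1 point per gene, for the listed genes and for Cirbp (diamond) and Rbm3 (triangle) in each series, filled where the adjusted p was under 0.05, with a bar at the median of a list. The heat shock medians lie between 0.25 and 0.39, and both members lie below 0 in all 4 series.

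Of 5 genes linked to Rbm3 in neurons (Ntrk2, Bdnf, Plcg1, Creb1 and Rtn3), 1 was called, the transcription factor gene Creb1 in iMSN-D2RKO saline (0.65, adjusted p = 0.0315), where 17.4% of all genes were called higher. Its difference was 0.04 (adjusted p = 0.898) without the set-apart libraries. Rtn3, a reticulon known as a target of RBM3 in translation, was not called in any series. Of the 2 genes close to Rbm3 in sequence, Rbmx and Rbmxl1, Rbmx was higher in the dark in WT cocaine (0.21, adjusted p = 0.0289), as were 9.9% of all genes. It was not called there with upper-quartile scaling (0.10, adjusted p = 0.203). No gene of these lists was called for cocaine or genotype as means over the day in limma.

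Likeness to each member was ranked by Pearson's r of mean log2(FPKM + 1) over the 22 groups, among genes with a mean FPKM of at least 5, as a description in which group means share the set-apart libraries. Cirbp was most like 2410002F23Rik (0.92), Nudcd3, which encodes a co-chaperone (0.91), Parl, an inner mitochondrial membrane protease (0.91), Tsn, translin (0.91), and Rab34, a small GTPase (0.91). Its strongest opposites were Setd8, a histone H4 methyltransferase (-0.96), Npepps, an aminopeptidase (-0.92), and Hsph1 (-0.92). Rbm3 was most like Tomm20, a receptor of mitochondrial protein import (0.86), Fam117a (0.83), Retsat, a retinol saturase (0.83), Trim35 (0.82) and Ankrd16 (0.81), with Fxyd5 (-0.89), Cdkal1 (-0.86) and Usp39 (-0.85) at the other end. Over means without the set-apart libraries, Retsat fell to 0.36, the other 4 genes most like Rbm3 had r of 0.63 to 0.77 and its 3 opposites -0.76 to -0.62, and the 5 most like Cirbp had 0.71 to 0.84 and its 3 opposites -0.92 to -0.82. The 2 members had r = 0.72 with each other, and 0.57 when means were taken without the set-apart libraries. For Rbm3, 1.09% of genes had a higher r than Cirbp, and for Cirbp 7.97% had a higher r than Rbm3.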

How the data were processed

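Poly(A) RNA of NAcc punches was sequenced by the authors as stranded single-end reads and aligned to mm10. The submitters' notes name CASAVA 1.8.2, Bowtie and Cuffnorm. The deposited values are FPKM per gene, scaled by the authors across libraries with Cuffnorm, without counts, so depth is unknown and precision was taken from the 3 libraries of a group. Of 72 columns, 6 list the ZT3 libraries again with identical values, which left 66 libraries, and 0 columns lacked a sample. Some log2 changes of low genes are understated on log2(FPKM + 1).

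Every gene that reached 1 FPKM anywhere entered limma 3.58.1 (R 4.3.3) as log2(FPKM + 1), with moderated variances that follow a trend and Benjamini-Hochberg adjustment over all genes. The contrasts used all 66 libraries in 22 groups, and the cosine fits the 18 of a series. JTK_CYCLE was written in Python 3.11.15 with numpy 2.4.6 and scipy 1.17.1, with Dixon's test at 95% leaving out at most 1 library of a time point. Its order of ties was settled by comparison with the study's listing. Relations were tested with 100000 permutations. Tested on simulated data, the dark-light contrast in WT saline recovered 96 of 100 genes shifted by 1 (log2) among 14073 and called 9 others. The cosine fit recovered 96 of 100 among 13855 genes and called 14 others. JTK_CYCLE recovered 197 of 200 among 1200 genes and called 7 of the 1000 others. The simulated noise was drawn for each gene on its own, without the shared axis of the set-apart libraries. These counts therefore do not give the rate of false calls in the real libraries.

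Cirbp, Rbm3, the gene lists and the comparisons were chosen with earlier results of these data known. Named genes were the members, Drd2, Hsph1, list genes past the test (at most 4 per list, smallest p first, or needed beside a result) and for each member the 5 most like and 3 least like genes. Markers of spiny neurons, oligodendrocytes, astrocytes, microglia, endothelium, cortical neurons and choroid plexus were summed. Oligodendrocyte markers had medians of 2277 FPKM in the set-apart libraries and 2912 in the others, and microglia markers 89.7 and 79.4. Alternatives were other pseudocounts, no filter, upper-quartile scaling, a replicate block, the library score as a covariate, and leaving out replicates, time points or the set-apart libraries. Leaving out single libraries, and the library with the highest FPKM sum, was added after seeing the data. Same-numbered libraries did not deviate together on average (mean correlation -0.00312 over 693 pairs, against 0.00257 over 1386 with different numbers). Single pairs of the same number ran from -0.895 to 0.880, so this mean cannot tell whether some of them shared a batch. The main fits did not pair libraries by number.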

Additional observations from a re-analysis of the deposited data

How the results depend on the processing

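With the set-apart libraries left out, the JTK_CYCLE p of Cirbp became 0.0124 in WT cocaine, 0.0488 in iMSN-D2RKO saline and 0.000413 in iMSN-D2RKO cocaine, where that of Rbm3 was also 0.000413. The dark-light difference in iMSN-D2RKO saline was -0.52 (Cirbp) and -0.20 (Rbm3) and lost its call. Some differences of dark minus light between cocaine and saline changed sign (Rbm3 in WT -0.078, Cirbp in iMSN-D2RKO -0.23). So did that of dark minus light between the genotypes after cocaine (Cirbp -0.20). The genotype difference in the saline mean level also changed sign (Cirbp 0.039). None of them was called. Rbm3 differed between the genotypes in the cocaine mean (0.30), and 2 differences at single times passed. The adjusted p of change over time was 0.12 for Rbm3 in WT saline, 0.0566 for Cirbp in iMSN-D2RKO saline, and 0.00759 and 0.0479 for Cirbp and Rbm3 in iMSN-D2RKO cocaine. Cosine amplitudes were 0.36 (Cirbp) and 0.29 (Rbm3) in WT saline and 0.50 (Cirbp) in WT cocaine, no longer past the test, and 0.57 and 0.31 in iMSN-D2RKO cocaine, now past it. The cause was not tested.

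With the library score removed, the JTK_CYCLE p of Cirbp was 0.0146 in WT cocaine, 0.340 in iMSN-D2RKO saline and 0.000190 in iMSN-D2RKO cocaine. With the score as a covariate, dark minus light in iMSN-D2RKO saline was -0.40 (Cirbp) and -0.17 (Rbm3). Differences of dark minus light that turned were, for Cirbp, -0.25 (cocaine against saline in iMSN-D2RKO) and -0.19 (between genotypes in cocaine). The genotype difference in the saline mean level of Cirbp turned to 0.0036. Change over time passed for Cirbp in WT saline (0.0268) and iMSN-D2RKO cocaine (0.00169). Amplitudes were 0.37 and 0.29 (Cirbp and Rbm3, WT saline), 0.40 (Cirbp, WT cocaine) and 0.49 (Cirbp, iMSN-D2RKO cocaine). With the cosine fit in place of JTK_CYCLE, the limma p adjusted over all genes was 0.182 for Cirbp in iMSN-D2RKO saline. For Rbm3 in WT saline it was 0.0335. The JTK_CYCLE p was not adjusted over genes, so they are unlike measures. At the thresholds used, the cosine fit called Rbm3 in WT saline and JTK_CYCLE did not. With upper-quartile scaling, JTK_CYCLE gave 0.0146 (Cirbp, iMSN-D2RKO saline) and 0.00339 (Rbm3, WT cocaine), change over time 0.0360 (Rbm3, WT cocaine), the cocaine effect on dark minus light of Rbm3 in WT -0.019 and the relation of Cirbp and Hsph1 -0.51. That cocaine effect was -0.00041 with a pseudocount of 0.1 and -0.039 with the cocaine series without ZT3, where dark minus light of Cirbp in iMSN-D2RKO cocaine was -0.86 and not called. With all genes above 0 tested, 0 genotype differences at single times passed.

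Leaving out a time point also moved results. Here cocaine effect stands for cocaine against saline in dark minus light, and genotypes for iMSN-D2RKO against WT in dark minus light. The saline mean stands for iMSN-D2RKO against WT in level. Without ZT3, dark minus light was -0.40 (Rbm3, iMSN-D2RKO saline) and -0.86 (Cirbp, iMSN-D2RKO cocaine), neither called. Without ZT7, JTK_CYCLE gave 0.0189 (Cirbp, WT cocaine), 0.00466 (Cirbp, iMSN-D2RKO cocaine) and 0.00760 (Rbm3, iMSN-D2RKO saline), and small differences turned to -0.0093 (Rbm3, cocaine effect in WT), -0.18 (Cirbp, genotypes in cocaine) and 0.0028 (Cirbp, saline mean). Without ZT11, JTK_CYCLE gave 0.0418 (Cirbp, iMSN-D2RKO saline), dark minus light of Cirbp was -0.81 (WT cocaine), -0.72 and -0.68 (iMSN-D2RKO saline and cocaine) and of Rbm3 -0.067 and 0.029 there, and the Rbm3 differences turned to -0.056 (cocaine effect in WT) and 0.056 (genotypes in saline). Without ZT15, dark minus light passed at -0.70 (Cirbp, WT saline), -0.46 (Rbm3, WT saline) and -0.33 (Rbm3, WT cocaine), was -0.82 (Cirbp, iMSN-D2RKO cocaine, no longer called), and the saline mean of Cirbp was 0.053. Without ZT19, JTK_CYCLE gave 0.0863 (Cirbp, iMSN-D2RKO saline), dark minus light of Cirbp was -0.73 (WT cocaine), -0.72 and -0.82 (iMSN-D2RKO saline and cocaine) and of Rbm3 -0.19 in iMSN-D2RKO saline, and turned differences were -0.10 (Cirbp, cocaine effect in iMSN-D2RKO) and -0.093 and -0.072 (Cirbp and Rbm3, genotypes in cocaine). Without ZT23, JTK_CYCLE gave 0.0282 (Cirbp, iMSN-D2RKO saline), dark minus light -0.26 (Rbm3, iMSN-D2RKO saline) and the cocaine effect on Rbm3 in WT -0.14.

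Leaving out all libraries of 1 replicate number, or the library with the highest FPKM sum, moved the JTK_CYCLE p of Cirbp over 0.000250 to 0.0286 in WT cocaine and 0.0154 to 0.134 in iMSN-D2RKO saline. Dark minus light ran from -1.16 to -0.57 (Cirbp, WT cocaine), -0.98 to -0.71 and -0.39 to -0.21 (Cirbp and Rbm3, iMSN-D2RKO saline) and -1.12 to -0.62 (Cirbp, iMSN-D2RKO cocaine). Its cocaine effect ran from -0.65 to 0.12 and -0.044 to 0.092 (Cirbp and Rbm3, WT) and -0.17 to 0.25 and -0.026 to 0.34 (iMSN-D2RKO), and its genotype difference from -0.29 to 0.03 (Rbm3, saline) and -0.17 to 0.31 (Cirbp, cocaine). Genotype differences in level ran from -0.10 to 0.03 (Cirbp, saline), -0.038 to 0.35 (Cirbp, cocaine) and -0.025 to 0.015 (Rbm3, ZT3). The adjusted p of change over time ran from 0.0596 to 1.0 (Rbm3, WT saline), 0.0327 to 0.315 (Cirbp, WT cocaine), 0.0523 to 0.674 and 0.00673 to 0.253 (Cirbp and Rbm3, iMSN-D2RKO saline). Amplitudes ran from 0.41 to 0.66 and 0.27 to 0.46 (Cirbp and Rbm3, WT saline) and 0.53 to 0.92 (Cirbp, WT cocaine), and 0 or 1 single-time genotype differences passed. A replicate block changed none of the 54 results it was fitted to (Cirbp, dark minus light in WT cocaine, -0.88), and neither did a pseudocount of 5.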
